A study of Mus musculus with 6 samples.

Results

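The genes examined here encode 10 immune checkpoint ligands, cell surface proteins through which a tumour cell can restrain or engage immune cells: Cd274, Pdcd1lg2, Cd80, Cd86, Pvr, Cd47, Cd276, Vtcn1, Tnfrsf14 and Cd200. They were picked by gene symbol from the 18182 genes in the files, and all 10 symbols were found. RNA sequencing was performed on the mouse Lewis lung carcinoma line (LLC). The cells had been given a red fluorescent protein (LLC-RFP) and were recovered by sorting for it. Wild type C57BL/6 mice had received LLC-RFP under the skin, without other cells (LLC alone, n = 3 libraries) or mixed with bone marrow-derived mesenchymal stem cells (LLC with BMSCs, n = 3 libraries), and the cells came from the primary tumours. Female mice of 6 weeks of age are described for tumours grown from LLC cells that carried luciferase, and the age is not stated again for the LLC-RFP tumours. The number of mice behind a library was not given in the sources used here, so the p-values measure only the spread between these 6 samples, which may be technical. The comparison asks whether the ligands that sorted tumour cells carry differ once BMSCs are injected with them.

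Immune checkpoint ligands act by contact. PD-L1 (Cd274) and PD-L2 (Pdcd1lg2) bind PD-1 on T cells and dampen T cell receptor signalling. CD80 and CD86 bind both the activating receptor CD28 and the inhibitory receptor CTLA-4 and are best known from antigen-presenting cells. CD155 (Pvr) binds TIGIT, CD96 and the activating receptor CD226 on T and NK cells. CD47 binds SIRP-alpha on myeloid cells and restrains phagocytosis, and CD200 restrains myeloid cells through the CD200 receptor. HVEM (Tnfrsf14) binds the inhibitory receptors BTLA and CD160 and the activating ligand LIGHT (Tnfsf14), and CD276 and VTCN1 belong to the B7 family with less settled receptors. Interferon-gamma is the best known inducer of PD-L1 in tumour cells.

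Of the 10 genes, Tnfrsf14, Cd274 and Pvr were higher in LLC with BMSCs than in LLC alone, by 2.97-fold, 1.72-fold and 1.24-fold. Cd47 and Cd276, both abundant, did not pass the test. Cd86, Cd200 and Cd80 had a few counts in LLC with BMSCs and 0 to 2 in LLC alone, and Pdcd1lg2 and Vtcn1 were near the limit of detection in both groups.

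The files held between 33476347 and 46189113 counted fragments per library. Every pair of replicates differed by more than counting error, with a chi-square per degree of freedom of 3.03 to 60.4, so all 6 libraries were kept as separate samples. In LLC alone replicate 3, counts fell with transcript length relative to the other libraries. Its median deviation on the log2 scale was 0.31 over the shortest genes (the lowest of 5 equal classes) and -0.37 over the longest. LLC alone replicates 1 and 2 were at -0.02 and -0.003 over the longest genes. In LLC with BMSCs replicates 1 to 3 the trend ran the other way, at 0.18, 0.10 and 0.13 over the longest genes. The trend over length thus differed between the groups as well. As for the cell label, the epithelial keratin Krt8 was abundant at 90.3 to 113 FPKM (fragments scaled by transcript length and depth), whereas Krt7, Krt19, Epcam and Cdh1 were at 0.05 FPKM or lower in every library. The remaining carcinoma marker, Krt18, was at 0.03 to 0.13 FPKM in LLC alone and at 0.63 to 0.69 FPKM in LLC with BMSCs. Its log2 fold change was 2.91 (edgeR adjusted p = 0.000221). With at most 8 counts in a library of LLC alone, it passed edgeR's filter on low counts only through LLC with BMSCs and so had to differ. The epithelial label thus rests mainly on Krt8 among these markers. Of the 11 mesenchymal stem cell markers, 9 were tested by edgeR. In LLC with BMSCs 9 were higher, beside 31.5% of all tested genes. Col1a1 had at most 4 counts in a library of LLC alone, passed the filter only through LLC with BMSCs and so had to differ. The 11 markers summed to 106 to 121 FPKM in LLC alone and 226 to 232 FPKM in LLC with BMSCs. Thy1 was at 0.03 FPKM or lower. The sum of 9 neutrophil markers was 0.29 to 0.61 FPKM in LLC alone and 40.6 to 49.4 FPKM in LLC with BMSCs, nearly all of it S100a8 and S100a9. Ly6g, also on this list, was not higher, at 0.10, 0.11 and 0.03 FPKM in LLC alone and at 0.08, 0.03 and 0.03 FPKM in LLC with BMSCs. It had at most 4 counts in a library and was not tested. The sums of both lists moved with every difference described below, and their part in those differences was not tested. In sorted bulk cells, fewer cells of a type and less RNA per cell cannot be told apart.

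The promoters of Tnfrsf14 and Cd274 are shown from 250 bases before to 50 bases after the RefSeq transcription start. Among the tested members with counts in every library, these genes differed most. RefSeq windows of build GRCm38.p6 were matched for 8 of the 10 genes: Tnfrsf14, Cd274, Cd276, Cd80, Cd200, Cd47, Pdcd1lg2 and Vtcn1. In the Tnfrsf14 window (chr4:154928028-154928327, minus strand), capitals mark a match to the interferon-stimulated response element, searched on both strands as GAAANNGAAA, from -64 to -55 relative to the start. In the Cd274 window (chr19:29367188-29367487, plus strand), capitals mark a match to the core of the hypoxia response element, searched on both strands as ACGTG, from 40 to 44 after the start.
Tnfrsf14: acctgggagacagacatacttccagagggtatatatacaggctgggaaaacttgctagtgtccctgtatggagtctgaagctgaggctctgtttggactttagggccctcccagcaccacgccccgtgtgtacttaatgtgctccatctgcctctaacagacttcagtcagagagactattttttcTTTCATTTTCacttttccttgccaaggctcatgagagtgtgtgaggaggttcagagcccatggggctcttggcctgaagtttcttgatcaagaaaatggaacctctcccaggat
Cd274: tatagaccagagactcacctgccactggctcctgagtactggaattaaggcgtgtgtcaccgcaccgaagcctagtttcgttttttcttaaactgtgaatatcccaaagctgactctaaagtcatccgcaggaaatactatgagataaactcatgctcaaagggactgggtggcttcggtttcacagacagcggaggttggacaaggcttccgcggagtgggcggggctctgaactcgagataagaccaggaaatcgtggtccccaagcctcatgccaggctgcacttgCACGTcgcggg

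Tnfrsf14 was the only one of the 8 windows with the interferon-stimulated response element, which occurred in 3.44% of 32851 promoter windows of the same length. The ACGTG core was found in Cd274 and Cd47 and in 19.6% of all windows. The NF-kB site, searched by its usual degenerate form, was found in Pdcd1lg2 alone and in 8.46% of all windows. The interferon-gamma activated sequence, searched as TTCNNNGAA, was in none of the 8 windows and in 8.30% of all. A match describes these letters only and says nothing of binding. The Tnfrsf14 window is that of the RefSeq start, which lies inside the GENCODE gene given with its values, and the RefSeq transcript held under 2% of the gene's counts. Where the transcripts that held the other counts start is not known, and it may be outside this window.

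Counts were tested with edgeR's quasi-likelihood test over 13353 genes that passed its filter on low counts, and p-values were adjusted by the Benjamini-Hochberg method, with 0.05 as the threshold. By this test 31.5% of all tested genes were higher and 31.3% lower in LLC with BMSCs, so that a call was common in these data. The median log2 fold change of all tested genes was 0.01. Of the 10 ligands 6 passed the filter, and Cd86 passed it only through LLC with BMSCs and so had to differ. Of the 5 tested ligands with counts in every library, 3 were higher, 0 lower and 2 did not pass in edgeR. None of the 5 was lower by DESeq2, by limma or at an unadjusted edgeR p under 0.05. Vtcn1 also had counts in every library, at most 6, but did not pass the filter. The median log2 fold change of these 5 was 0.31. The FPKM values of the 2 groups did not overlap for Cd274, Tnfrsf14, Pvr and Cd86 among the tested ligands, and such separation was found in 70.6% of all tested genes.

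**Figure D1:**
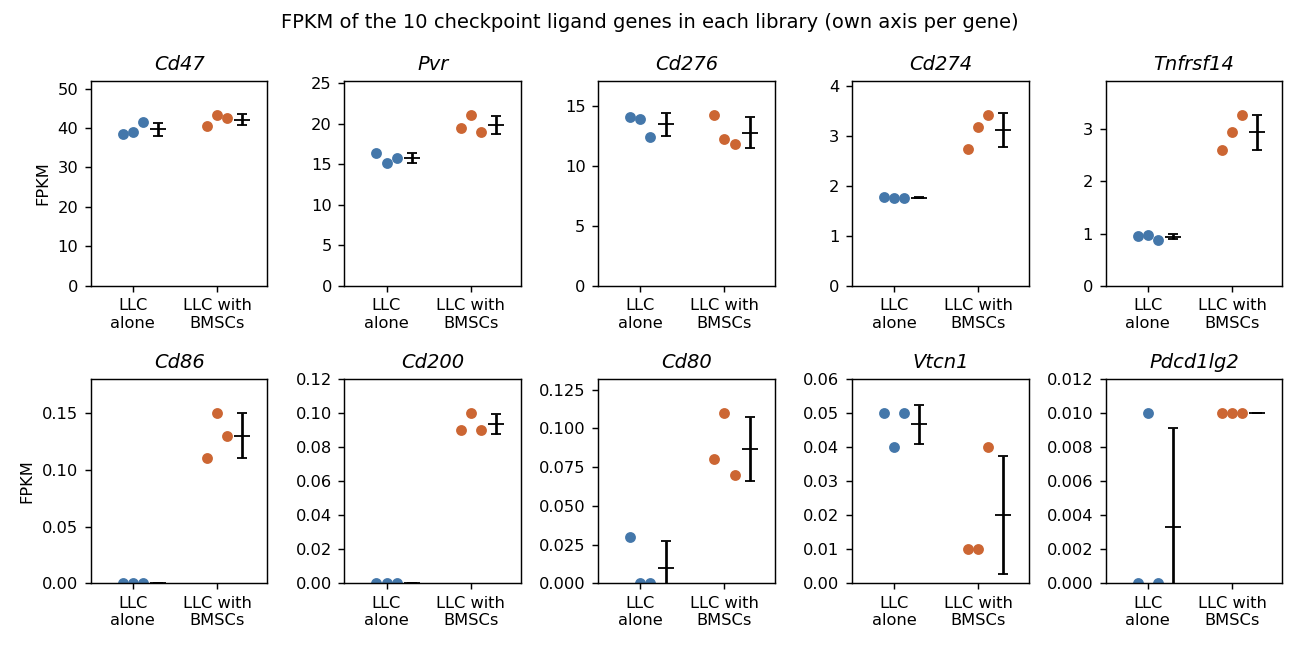
FPKM of each of the 10 ligand genes (vertical axis, a separate scale from 0 for each gene) in the 3 libraries of LLC alone (blue) and the 3 of LLC with BMSCs (orange), with the mean and SD in black. Cd274, Tnfrsf14 and Pvr sit apart in the 2 groups, Cd47 and Cd276 overlap, and the 5 genes of the lower row stay at or below 0.15 FPKM.

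Cd47, the SIRP-alpha ligand (chr16:49800533-49915010, plus strand, in GENCODE coordinates of GRCm38, as for the other genes), had the highest level of the 10 in both groups. It was measured at 38.4, 39.0 and 41.5 FPKM in LLC alone replicates 1 to 3 and at 40.5, 43.2 and 42.6 FPKM in LLC with BMSCs replicates 1 to 3. The FPKM ranges overlapped, because LLC alone replicate 3 lay above LLC with BMSCs replicate 1. In counts scaled to the mean effective library size they did not overlap. These were 5376, 5239 and 5794 in LLC alone and 6056, 6028 and 6145 in LLC with BMSCs. Its log2 fold change was 0.15 (SE 0.06, edgeR adjusted p = 0.0549), with an unadjusted 95% interval of 0.01 to 0.29. Without LLC alone replicate 3 the log2 fold change was 0.20 (edgeR adjusted p = 0.00312), and with library size in place of TMM (edgeR's trimmed-mean scaling) it was 0.17 (edgeR adjusted p = 0.0326), so that the call turned on these choices.

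Pvr, the ligand of TIGIT and CD226 (chr7:19903578-19921160, minus strand), was second in level in both groups. It was at 16.4, 15.2 and 15.8 FPKM in LLC alone and at 19.5, 21.0 and 18.9 FPKM in LLC with BMSCs. All 3 libraries of LLC with BMSCs lay above all 3 of LLC alone. The log2 fold change was 0.31 (SE 0.06, edgeR adjusted p = 0.00381), with a 95% interval of 0.16 to 0.46, and the gene would not be called with a threshold of 1 on the log2 scale.

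Cd276, the B7-H3 gene (chr9:58524298-58555437, minus strand), followed in level. Its FPKM values were 14.1, 13.9 and 12.4 in LLC alone and 14.2, 12.3 and 11.8 in LLC with BMSCs. LLC with BMSCs replicate 1 was the highest of the 6 and the groups overlapped. The log2 fold change was -0.12 (SE 0.09, edgeR adjusted p = 0.279, 95% interval -0.33 to 0.09). Once the trend over transcript length was removed from the libraries, it was -0.25 and passed the test (edgeR adjusted p = 0.0126). Exons of Cd276 overlap those of Gm10657 on the other strand, and those of Cd274 overlap AC119228.1 on the other strand. Whether the counting used strand was not stated.

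Cd274, the PD-L1 gene (chr19:29367455-29388095, plus strand), lay well below these 3 genes. It was measured at 1.78, 1.76 and 1.75 FPKM in LLC alone and at 2.74, 3.17 and 3.41 FPKM in LLC with BMSCs. The lowest library of LLC with BMSCs was clearly above the highest of LLC alone. In counts scaled to the mean effective library size, the means were 278 ± 0.584 (SD, n = 3) in LLC alone and 478 ± 48.6 (SD, n = 3) in LLC with BMSCs. The 3 libraries of LLC alone were nearly equal, with a coefficient of variation of 0.21%, and those of LLC with BMSCs varied by 10.2%. At 297, 216 and 294 counts in LLC alone, 0.21% is below counting error, so it is no measure of precision. Whether the spread differs between the groups was not tested. The log2 fold change was 0.78 (SE 0.09, edgeR adjusted p = 0.000258), with a 95% interval of 0.56 to 0.999, and Cd274 would not be called with a threshold of 1 on the log2 scale. Cd274 ranked at the 37.3 percentile of the genes listed in a library in LLC alone and at the 42.2 percentile in LLC with BMSCs.

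Tnfrsf14, the HVEM gene (chr4:154921933-154928563, minus strand), had the largest fold change of the 5 tested ligands with counts in every library. It was at 0.96, 0.97 and 0.88 FPKM in LLC alone and at 2.60, 2.95 and 3.27 FPKM in LLC with BMSCs, with no overlap. The log2 fold change was 1.57 (SE 0.10, edgeR adjusted p = 1.20e-05), a 2.97-fold difference with a 95% interval of 2.52 to 3.52. On the log2(FPKM + 1) scale, where the pseudocount compresses genes of this level, the difference was 1.02 (limma adjusted p = 2.31e-05).

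Tnfrsf14 stood below Cd274 in LLC alone, and their ranges overlapped in LLC with BMSCs. The FPKM ratio of Tnfrsf14 to Cd274 was 0.539, 0.551 and 0.503 in LLC alone and 0.949, 0.931 and 0.959 in LLC with BMSCs. This gave p = 0.1 in a two-sided exact permutation test, the smallest that 3 libraries against 3 allow, as it did for each of the 4 ratios compared among members. The ratio of Cd274 to Cd47 was 0.0421 to 0.0463 in LLC alone and 0.0677 to 0.0801 in LLC with BMSCs. Summed over the 10 genes, the FPKM of the ligands was 70.9 to 72.4 in LLC alone and 79.8 to 83.0 in LLC with BMSCs, of which Cd47 made up 55.3% and 51.9%, Pvr 22.01% and 24.4%, Cd276 18.8% and 15.8%, Cd274 2.46% and 3.83%, and Tnfrsf14 1.31% and 3.63%.

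**Figure D2:**
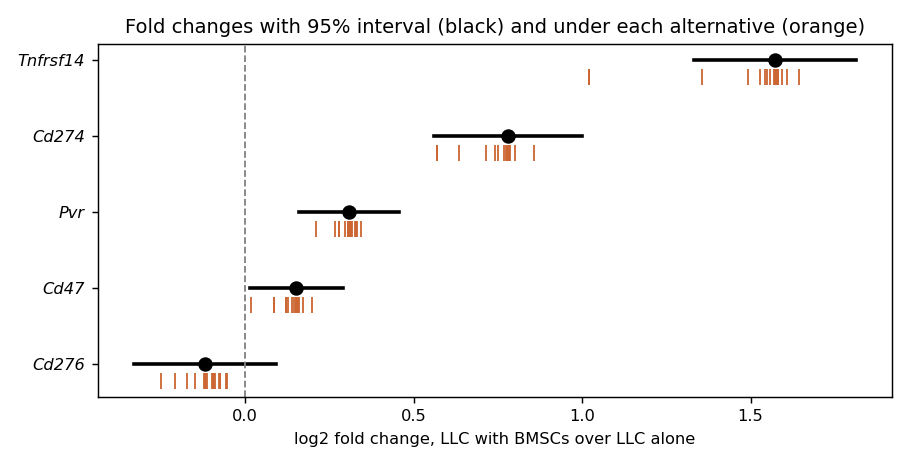
Log2 fold change of LLC with BMSCs over LLC alone (horizontal axis) for the 5 tested ligands with counts in every library. Black points are the edgeR estimates with their unadjusted 95% intervals, and orange ticks are the estimates under the other ways of processing. Tnfrsf14 (1.57), Cd274 (0.78) and Pvr (0.31) stay above 0 under each, and Cd47 and Cd276 lie near 0.

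Cd86 and Cd80, the genes of the ligands of CD28 and CTLA-4, were at the edge of detection. Cd86 (chr16:36603869-36666081, minus strand) had 0 counts in each library of LLC alone and 12, 16 and 14 counts in LLC with BMSCs, or 0.11, 0.15 and 0.13 FPKM. The floor of 3 counts in each library of LLC alone makes it at least 4.33-fold higher in LLC with BMSCs, a limit that covers counting error only. Cd80 (chr16:38455561-38496335, plus strand) had 2, 0 and 0 counts in LLC alone and 6, 8 and 5 in LLC with BMSCs. The ratio of its summed counts per counted fragment was 9.02, with an exact 95% interval of 2.18 to 79.9 for counting error. Both genes were higher in all 3 libraries of LLC with BMSCs.

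Cd200, the gene of the CD200 receptor's ligand (chr16:45382135-45409053, minus strand), had 0 counts in each library of LLC alone and 9, 10 and 9 counts in LLC with BMSCs. It was at least 2.89-fold higher, against the same floor of 3 counts per library. Cd80 and Cd200 did not pass the filter. In a fit without the filter the edgeR adjusted p was 0.0187 for Cd80 and 0.00138 for Cd200.

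Vtcn1 (chr3:100825459-100896922, plus strand), a B7 family member, had 6, 3 and 6 counts in LLC alone and 1, 1 and 5 in LLC with BMSCs. The ratio of summed counts was 0.443 with an exact 95% interval of 0.153 to 1.15, so that a difference was not detectable at this depth. Pdcd1lg2, the PD-L2 gene (chr19:29410919-29471161, plus strand), had 0, 1 and 0 counts in LLC alone and 1 count in each library of LLC with BMSCs. Both groups were at or under the floor and no fold is given. Cd274 was the only gene of a PD-1 ligand whose transcript was above the floor in these libraries.

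CD80, CD86 and CD200 are also made by immune cells. The 10 macrophage markers summed to 16.9 to 20.5 FPKM in LLC alone and 19.8 to 21.3 FPKM in LLC with BMSCs, and of 7 tested 5 were higher and 1 lower, beside 31.5% and 31.3% of all tested genes. Adgre1, the F4/80 gene, was at 0 in each library of LLC alone and at 0.42, 0.56 and 0.45 FPKM in LLC with BMSCs. The lower marker was Cd68, with a log2 fold change of -0.89 (edgeR adjusted p = 0.000501). Its mean FPKM went from 5.55 without BMSCs to 3.03 with them. Cd14, the most abundant marker of the list, did not pass (log2 fold change 0.07, edgeR adjusted p = 0.587). C1qa, C1qb and Cd163 stayed at 0.07 FPKM or lower in every library. The 10 dendritic cell markers summed to 7.85 to 9.08 FPKM and 7.56 to 7.87 FPKM, and of 8 tested 4 were higher and 2 lower, beside the same shares. Itgax, also on this list, was at 0.08 FPKM or lower throughout. Zbtb46 and Clec9a were higher, by 0.39 and 0.73 on the log2 scale (edgeR adjusted p = 0.00292 and 0.00309). The mean FPKM of Zbtb46 rose from 2.46 to 3.24, and that of Clec9a from 0.36 to 0.62. The MHC class II genes H2-Aa and H2-Ab1 were at most 0.13 FPKM in LLC alone. In LLC with BMSCs they were at 0.24 to 0.51 FPKM (edgeR adjusted p = 0.000604 and 0.00118). The 2 lower markers were Cd74 and Flt3. Cd74, the most abundant of the list in LLC alone, had a log2 fold change of -0.85 (edgeR adjusted p = 0.00139). Its mean FPKM went from 4.93 without BMSCs to 2.80 with them. Flt3 had a log2 fold change of -1.04 (edgeR adjusted p = 0.00312). Of the 6 neutrophil markers tested, 5 had at most 3 counts in each library of LLC alone, passed the filter only through LLC with BMSCs and so had to differ. Likewise Adgre1, Itgam, Mrc1, H2-Aa and H2-Ab1 passed it only through LLC with BMSCs, with at most 9 counts in a library of LLC alone. The remaining neutrophil marker, Cxcr2, was higher by 0.80 on the log2 scale (edgeR adjusted p = 0.0223). T cell markers summed to 0.20 to 0.37 FPKM and 0.20 to 0.27 FPKM, NK cell markers to at most 0.05 FPKM and endothelial markers to at most 0.32 FPKM. The B cell markers summed to 1.55 to 1.81 FPKM and 1.88 to 2.33 FPKM, nearly all of it Pax5. The part of these cells in the counts of Cd80, Cd86 and Cd200 was not tested.

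The transcript tables divide the counts of 4 ligands among a RefSeq transcript and transcripts that the authors assembled. Cd274 counts lay mainly on its RefSeq transcript of 3653 bases, with 90.5%, 73.2% and 81.2% in LLC alone and 92.7%, 94.3% and 100% in LLC with BMSCs, the rest on an assembled transcript of 3967 bases. Its share was therefore higher in each library of LLC with BMSCs. The counts of the RefSeq transcript itself were 269, 158 and 239 in LLC alone and 409, 474 and 536 in LLC with BMSCs. Tnfrsf14 differed from this, as its RefSeq transcript of 893 bases had 0 counts in LLC alone and 3.26, 7.39 and 5.61 in LLC with BMSCs. The bulk of its counts lay on an assembled transcript of 4845 bases, with 205, 128 and 194 in LLC alone and 490, 523 and 612 in LLC with BMSCs. Since the files give no coordinates, it is not known which exons the assembled transcript holds or where it starts, and the values of Tnfrsf14 rest on it.

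Of the Cd47 counts, 60.2% ± 1.70 (SD, n = 3) in LLC alone and 65.2% ± 2.52 (SD, n = 3) in LLC with BMSCs were on an assembled transcript of 6061 bases, and the rest on a RefSeq transcript of 1928 bases. The RefSeq transcript of Cd276 held 85.3% ± 0.849 (SD, n = 3) and 89.8% ± 2.30 (SD, n = 3). Of 6 shares compared between the groups, 4 did not overlap, each with p = 0.1 in a two-sided exact permutation test (0.15 adjusted over the 6), the smallest the design allows. How often shares separate among all genes with several transcripts was not counted, so the 4 cannot be set against a background. The Tnfrsf14 RefSeq share, among the 4, rests on 0 counts in LLC alone and at most 7.39 in a library of LLC with BMSCs. Cd274 and Tnfrsf14 had estimated counts that were not whole in most libraries, which is how reads that match several transcripts or genes are divided, so their values are less certain than those of Pvr.

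**Figure D3:**
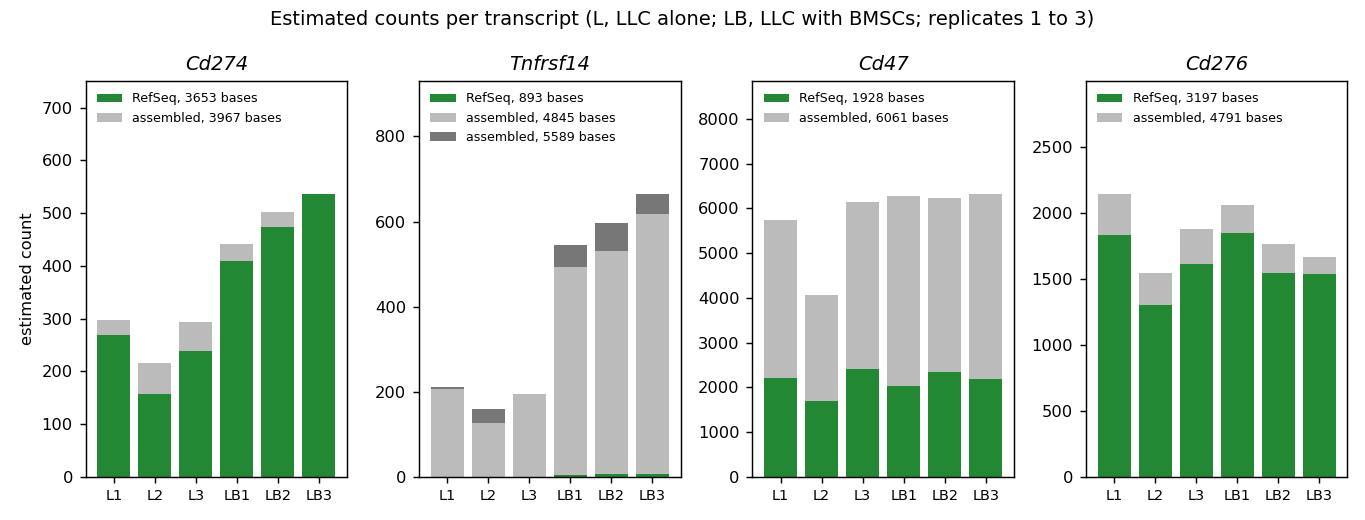
Estimated counts per transcript (vertical axis, from 0) of the 4 ligands with several transcripts, in LLC alone replicates 1 to 3 (L1 to L3) and LLC with BMSCs replicates 1 to 3 (LB1 to LB3). Green bars are RefSeq transcripts and grey bars are transcripts assembled by the authors. Cd274 counts are mostly green, and Tnfrsf14 counts are nearly all grey.

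Other surface ligands of immune receptors moved in both directions. Of 21 listed, 16 were tested, 3 were higher, 4 lower and 9 did not pass, shares below those of all tested genes, and the median log2 fold change was 0.07, or 0.03 without Cd24a, which passed the filter only through LLC with BMSCs. Lgals9, galectin-9, a ligand of TIM-3, was at 8.37, 8.59 and 9.02 FPKM in LLC alone and at 27.0, 25.6 and 26.2 FPKM in LLC with BMSCs (log2 fold change 1.58, edgeR adjusted p = 9.37e-07). H2-T23, the Qa-1 gene whose product presents a peptide to the NKG2A receptor, was at 4.12, 4.12 and 5.13 FPKM and at 13.5, 16.3 and 15.7 FPKM (log2 fold change 1.74, edgeR adjusted p = 1.34e-05). Cd24a, a ligand of Siglec receptors, was at 0 in LLC alone and at 0.97, 1.02 and 0.88 FPKM in LLC with BMSCs, at least 23-fold higher.

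The ligands that were lower were at 3.18 FPKM or less in LLC alone, as were Cd274 and Tnfrsf14. Tnfsf18, the ligand of the costimulatory receptor GITR, was at 2.94, 3.18 and 2.54 FPKM in LLC alone and at 0.11, 0.10 and 0.10 FPKM in LLC with BMSCs (log2 fold change -4.77, edgeR adjusted p = 5.82e-07). Igsf11, a ligand of VISTA, and the butyrophilin Btn1a1 had log2 fold changes of -3.87 and -2.03, from at most 0.36 FPKM. Tnfsf18, Igsf11 and Btn1a1 had at most 10, 5 and 4 counts in a library of LLC with BMSCs. They passed the filter only through LLC alone, so their direction was fixed by it. With at least 10 counts in every library, 1 of the 4 lower ligands was still called. Fgl1, a ligand of LAG-3 that is named because the count of 4 would otherwise be incomplete, fell by 1.89 on the log2 scale. The nectins Nectin1, Nectin2, Nectin3 and Nectin4, relatives of Pvr, did not pass the test, nor did the costimulatory genes Icosl, Cd40 and Tnfsf9.

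A list of 13 receptors held mainly partners of the 10 ligands. Most were at very low levels in these sorted cells, and 4 of 13 were tested. Lag3, a receptor of Fgl1, and Icos, that of Icosl, were listed as well and were at 0.11 FPKM or lower. Pdcd1, Ctla4, Cd28, Cd226, Cd96, Btla and Cd200r1 were at 0.06 FPKM or lower in every library. Sirpa, the CD47 receptor of myeloid cells, was at 0 in each library of LLC alone and at 1.18, 1.18 and 1.13 FPKM in LLC with BMSCs, at least 60.1-fold higher, and passed the filter only through LLC with BMSCs. Tigit, a Pvr receptor of T and NK cells, was at 3.86, 4.16 and 3.30 FPKM in LLC alone and at 2.44, 2.14 and 1.82 FPKM in LLC with BMSCs (log2 fold change -0.84, edgeR adjusted p = 0.00185), although Cd3e and the NK cell gene Klrb1c were at 0.02 FPKM or lower. Cd160, an HVEM receptor, was higher by 0.81 on the log2 scale (edgeR adjusted p = 0.0184), at no more than 0.34 FPKM. It did not pass in 3 of the 15 alternatives that gave a value. Havcr2, the TIM-3 gene, which is in the list as a receptor of Lgals9, fell by 0.86 on the log2 scale (edgeR adjusted p = 0.00128). The HVEM ligand Tnfsf14 was at 0.05 FPKM or lower.

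Of 18 genes that feed into PD-L1 transcription, all were tested and 14 were higher, 3 lower and 1, Irf2, did not pass, with a median log2 fold change of 0.64. This compares with 31.5% higher and 31.3% lower among all tested genes. The 14 include Irf9, which passed the filter only through LLC with BMSCs and so had to differ. With at least 10 counts in every library, 13 were higher. The list was chosen with earlier results of these data known. Irf1, a direct activator of the PD-L1 promoter, was at 7.57, 8.18 and 7.63 FPKM in LLC alone and at 46.1, 48.2 and 47.6 FPKM in LLC with BMSCs (log2 fold change 2.58, SE 0.06, edgeR adjusted p = 1.02e-07). Stat2 was at 1.82, 1.78 and 1.69 FPKM and at 22.2, 20.6 and 21.3 FPKM (log2 fold change 3.58, edgeR adjusted p = 7.59e-08). Its partner Irf9 was at 0.10, 0 and 0 FPKM and at 6.34, 4.59 and 4.48 FPKM, and passed the filter only through LLC with BMSCs. Irf9, Stat2 and Irf1 had the 3 highest fold changes of the list, that of Irf9 with its direction fixed by the filter. Any part of these genes in the difference of Cd274 was not tested.

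Among those lower, Myc, also an activator of PD-L1 and CD47 transcription, was at 677, 686 and 687 FPKM in LLC alone and at 321, 284 and 288 FPKM in LLC with BMSCs (log2 fold change -1.22, edgeR adjusted p = 4.80e-06). Hif1a, which encodes the hypoxia-inducible factor, fell by 0.36 and the AP-1 gene Jun by 0.34 on the log2 scale.

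Genes that modify, stabilise or degrade the ligands were on a list of 12, all of them tested. There were 6 higher, 2 lower and 4 that did not pass, beside 31.5% higher and 31.3% lower among all tested genes, with a median log2 fold change of 0.15. B3gnt3, a glycosyltransferase that acts on PD-L1, rose by 0.75 on the log2 scale (edgeR adjusted p = 0.000109), Hip1r, which sends PD-L1 to the lysosome, by 0.67 (edgeR adjusted p = 0.000183), and Cmtm6, which keeps PD-L1 at the cell surface, by 0.59 (edgeR adjusted p = 7.69e-05). Cmtm6 was at 13.4, 13.9 and 12.8 FPKM in LLC alone and at 19.9, 20.4 and 21.0 FPKM in LLC with BMSCs. Stub1, a ubiquitin ligase of PD-L1, fell by 0.52 (edgeR adjusted p = 0.00114) and Cops5, a deubiquitinase that stabilises PD-L1, by 0.36 on the log2 scale (edgeR adjusted p = 0.0029). Cul3, the cullin of an E3 ligase that degrades PD-L1, was higher by 0.18 (edgeR adjusted p = 0.0171), and was at -0.05 once the trend over length was removed.

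**Figure D4:**
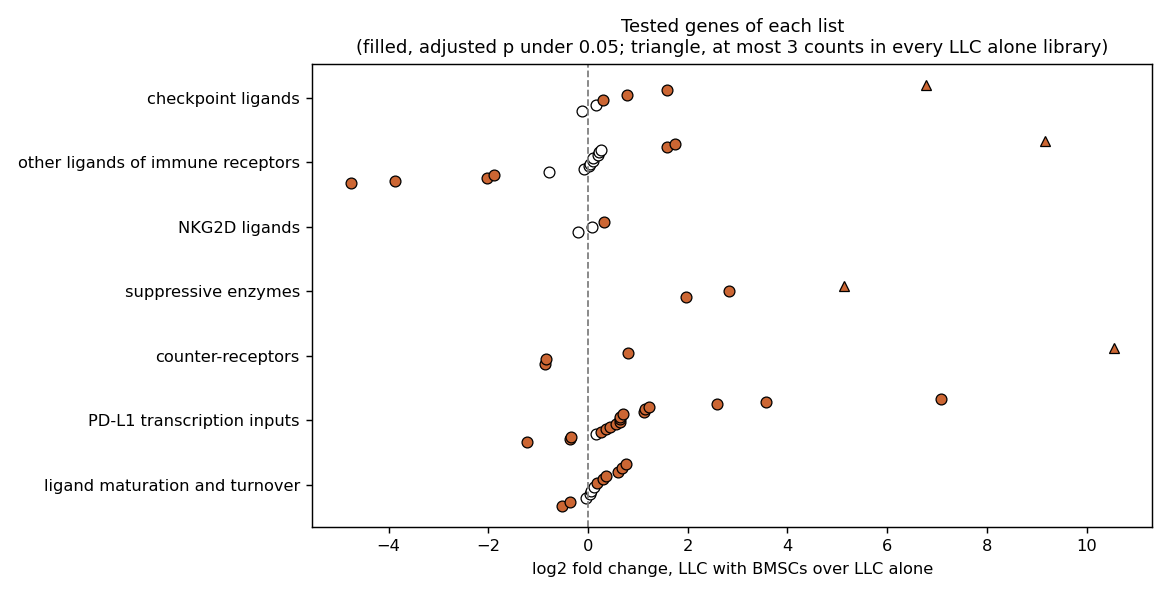
Log2 fold change of LLC with BMSCs over LLC alone (horizontal axis) for each tested gene of the ligands and of 6 related lists. Filled symbols passed the test at an adjusted p under 0.05, and triangles have at most 3 counts in every library of LLC alone, where the fitted value depends on the prior count and is no measure of size. Of the PD-L1 transcription inputs 14 of 18 are filled above 0, among them Irf9, which passed the filter only through LLC with BMSCs. The other ligands spread to both sides.

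The genes whose pattern over the 6 libraries was most like that of Cd274 were sought among 10508 tested genes with a symbol and a mean of at least 1 FPKM, as the smallest Euclidean distance of log2 CPM (counts scaled to library size) centred on each gene's mean. They were 2700097O09Rik, Ivns1abp, Nfatc2ip, Ccdc38 and Cyp39a1, at distances of 0.0999 to 0.127. Ivns1abp was at 52.9, 53.9 and 49.6 FPKM in LLC alone and at 86.2, 95.02 and 97.7 FPKM in LLC with BMSCs, and Nfatc2ip at 2.92, 3.03 and 2.94 FPKM and at 4.30, 5.23 and 5.16 FPKM. The log2 fold changes of the 5 genes were between 0.72 and 0.81, around the 0.78 of Cd274. The likeness is a description over 6 libraries.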

How the data were processed

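RNA sequencing of sorted LLC-RFP cells gave 6 libraries, 3 in each group (LLC alone, LLC with BMSCs), grouped and numbered from the sample titles. For genes and for transcripts, the authors deposited an estimated count, often not a whole number, and an FPKM value, which is divided by length and depth. The submitters' processing notes name HISAT, StringTie, Cufflinks and GATK and the build mm8, without roles; the counting program, its annotation and its use of strand were not given in the sources used here. Reads that match several transcripts are divided, which can move counts between similar genes. The files give no coordinates, so those printed are from GENCODE and RefSeq on GRCm38, another build.

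Counts were rounded and then analysed in edgeR 4.0.16 (R 4.3.3; TMM, default filter, quasi-likelihood test, all 6 libraries), with Benjamini-Hochberg adjustment over all tested genes and 0.05 as threshold. The standard error is the log2 fold change over the root of the test statistic. Levels between genes were compared in FPKM. A gene at 0 counts in all libraries of a group was bounded against 3 counts per library. At 33476347 to 46189113 counted fragments, 3 counts averaged 0.0732 CPM in LLC alone.

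The 10 members and all lists were chosen with earlier results of these data known. Named were all members, the 3 highest and 3 lowest fold changes that passed in each list, direct partners of a member and the 5 genes nearest to Cd274; Fgl1, single marker genes and receptors outside this rule were named after their values were seen. Alternatives were DESeq2 1.42.0, other scalings and filters, limma 3.58.1 on log2(FPKM + 1) and log2(FPKM + 0.1), a replicate block, leaving out each library, removing a trend over length, a fold threshold and summing close replicates. Some genes of these pathways are not reported here.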

Additional observations from a re-analysis of the deposited data

How the results depend on the processing

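Tnfrsf14, Cd274 and Pvr were higher under each alternative, and each passed its test apart from the fold threshold. Leaving out single libraries gave log2 fold changes of 1.49 to 1.64 for Tnfrsf14, 0.71 to 0.86 for Cd274 and 0.27 to 0.34 for Pvr. With the trend over length removed they were smaller, at 1.35 for Tnfrsf14, 0.63 for Cd274 and 0.21 for Pvr. Cd86 had no counts in LLC alone, so its direction was fixed by the filter and its fitted value is no measure of size. With a log2 fold threshold of 1 in addition, Cd274 (0.78) and Pvr (0.31) were not called. The counts then were 2 ligands higher in place of 4, 0 NKG2D ligands higher in place of 1, 1 counter-receptor higher in place of 2 and 0 lower in place of 2, 6 and 1 PD-L1 transcription inputs in place of 14 and 3, 0 and 0 maturation genes in place of 6 and 2, and 1155 and 957 of all tested genes in place of 4210 and 4183. Cd47 was called without TMM (0.17) and in the range 0.12 to 0.20 without single libraries, there without LLC alone replicate 3. With the trend over length removed, Cd276 was called (-0.25), making 1 ligand lower in place of 0, with 7 other ligands lower in place of 4 and 4 maturation genes lower in place of 2. The other ligands called higher were 5 in place of 3 without TMM, without a filter and with limma on log2(FPKM + 1) without a filter, and 3 to 5 without single libraries. Those called lower were 1 with at least 10 counts in every library and 2 with limma on either FPKM scale. NKG2D ligands called were 0 to 1 higher and 0 to 1 lower without single libraries, and 0 higher with close replicates summed. Counter-receptors called higher were 1 with DESeq2, with at least 10 counts in every library and with limma on either FPKM scale, and 1 to 2 without single libraries, and 4 were lower with limma without a filter. A filter changes which genes are tested and the fold threshold changes only the call, by construction. For the other changes the cause was not tested.

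Same-numbered libraries did not deviate together (correlations of 0.08, -0.11 and 0.06), so the numbers do not pair the samples. With a replicate block, 4 ligands were higher and 0 lower, with log2 fold changes of 1.57 for Tnfrsf14, 0.77 for Cd274 and 0.31 for Pvr, and 4161 and 4058 of all tested genes were called. Using normalized counts in place of FPKM, an alternative added after the data were seen, left 5 tested ligands whose groups do not overlap in place of 4. The added ligand was Cd47. The share of all tested genes that separate in normalized counts was not computed. Depth limits Cd80, Cd86, Cd200, Vtcn1 and Pdcd1lg2, which had at most 16 counts in a library.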

Other observations

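Of 5 enzymes that suppress immune cells, 3 were tested. Arg1 had at most 2 counts in a library of LLC alone, passed the filter only through LLC with BMSCs and so had to differ, and the other 2, Nos2 and Nt5e, were higher, beside 31.5% of all tested genes. Nos2, the inducible nitric oxide synthase, was at 3.54, 3.34 and 2.91 FPKM in LLC alone and at 26.4, 21.1 and 21.6 FPKM in LLC with BMSCs (log2 fold change 2.82, SE 0.12, edgeR adjusted p = 1.73e-06). Nt5e, the CD73 gene, whose product makes adenosine, was at 0.97, 1.01 and 1.07 FPKM and at 3.95, 4.07 and 4.05 FPKM (log2 fold change 1.96, SE 0.08, edgeR adjusted p = 1.11e-06). Arg1, arginase, had 4 summed counts in LLC alone and 164 in LLC with BMSCs, a ratio of 38.9 with an exact 95% counting interval of 14.9 to 145. Arg1 and Nos2 are also made by myeloid cells, whose markers are given above beside Cd86, and their part was not tested. Ido1 and Entpd1 were at 0.03 FPKM or lower.

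Of 5 ligands of the activating NK cell receptor NKG2D, 3 were tested. Raet1e was at 9.31, 8.03 and 10.1 FPKM in LLC alone and at 11.1, 11.8 and 11.9 FPKM in LLC with BMSCs (log2 fold change 0.32, SE 0.10, edgeR adjusted p = 0.0198) and did not pass in 3 of 17 alternatives. Raet1d was at 6.39, 7.22 and 7.93 FPKM and at 6.76, 6.01 and 6.27 FPKM (edgeR adjusted p = 0.134). Ulbp1 was at 25.8, 25.7 and 11.1 FPKM in LLC alone and at 22.7, 21.9 and 21.9 FPKM in LLC with BMSCs, with LLC alone replicate 3 far below the other libraries (edgeR adjusted p = 0.834).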
